A study of Homo sapiens with 3 samples.

Results

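The mitochondrial ribosome (mitoribosome) proteins are followed here through the differentiation of THP-1, an established human monocytic leukemia cell line. The members are the 140 probe sets whose gene symbol is MRPL or MRPS with a number. They stand for 75 genes out of 19775 named by a probe set of their own and for 140 of 54675 probe sets on the array. RNA came from 3 cultures, with 1 array each. The undifferentiated cells had no PMA (phorbol myristate acetate, a drug that activates protein kinase C). The culture labelled PMA 3 days was held in 200 nM PMA for 24 h and then for 3 days without it. The culture labelled PMA 8 days was held in 200 nM PMA for 72 h and then for 5 days without it. The protocols give medium with 10% serum for all 3 cultures. Medium with 2% serum was given 16 h before RNA isolation, and the labels' protocols do not say whether this included the undifferentiated cells. Time in PMA, time since PMA and time in culture cannot be told apart. There are no replicates, so no difference below has a test, and the only error that could be measured is the disagreement between probe sets of the same gene.

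Mitochondria keep their own ribosomes, which translate the few messenger RNAs of the mitochondrial genome into core subunits of the respiratory chain and of ATP synthase. The ribosomal RNA is mitochondrial, but all protein subunits are nuclear genes whose products are imported. MRPL genes mostly encode the large subunit, where peptide bonds form, and MRPS genes mostly the small subunit, where messenger RNA is decoded. MRPS18A and MRPS30 are exceptions and sit in the large subunit. Some of the proteins have a homologue in bacterial ribosomes, and others are found only in mitochondria.

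The labelled cell states were compared with marker genes, in lists chosen with earlier results of these data known. Of the listed macrophage markers, 7 of 7 measured were higher by at least 2-fold on both PMA arrays, for example CD163 at 218, 26654 and 15456 signal units (undifferentiated, PMA 3 days, PMA 8 days). The granule protein genes ELANE and AZU1 of myeloid precursors were lower on both, ELANE at 32064, 156 and 199. The myeloid transcription factor SPI1 was at 25, 162 and 175 units, near or under the floor of 149.8 below which a signal was not used. Of the lymphoid markers 1 of 4 and of the epithelial and fibroblast markers 2 of 5 were above the floor on any array, among them COL1A1 at 464, 2337 and 1828. Actin had a 3' to 5' signal ratio of 1.37, 1.36 and 1.49. The RNAs spiked in as controls of labelling were read by 27 probe sets. Against undifferentiated cells their median log2 ratio was 0.31 on the PMA 3 days array and 0.02 on the PMA 8 days array. Members' values after scaling to these controls are given with the counts.

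Most mitoribosomal protein transcripts differed little between the arrays. All 75 genes were above the floor on all 3 arrays by their brightest probe set, and 58 of them (77.3%) lay within 1.5-fold in every comparison, against 48.3% of all genes with a ratio in each. The members were bright: their median signal in undifferentiated cells was 4181, against 161 over all probe sets. Shares of all genes, here and below, include genes near the floor. The part of brightness in the members' smaller differences was not tested. At PMA 3 days the median log2 ratio to undifferentiated cells was -0.25, with 55 members below 0 (73.3%, against 57.5% of all genes) and 20 above, and single members ran from -1.03 to 0.39. At PMA 8 days it was -0.14, with 45 below (60%, against 54.9%) and 30 above, and a range from -1.04 to 0.91. Between the PMA arrays the median was 0.13 at 8 days over 3 days, with 54 members higher at 8 days and 21 lower (28.0%, against 45.3%). The medians kept their sign under every probe set choice and scaling tried, though their size moved. The floors tried could not change them, as every member was above each floor. Over all genes tested the medians were -0.12, -0.07 and 0.04 in the same order, so that the members differed from all genes by -0.13, -0.06 and 0.10.

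**Figure D1:**
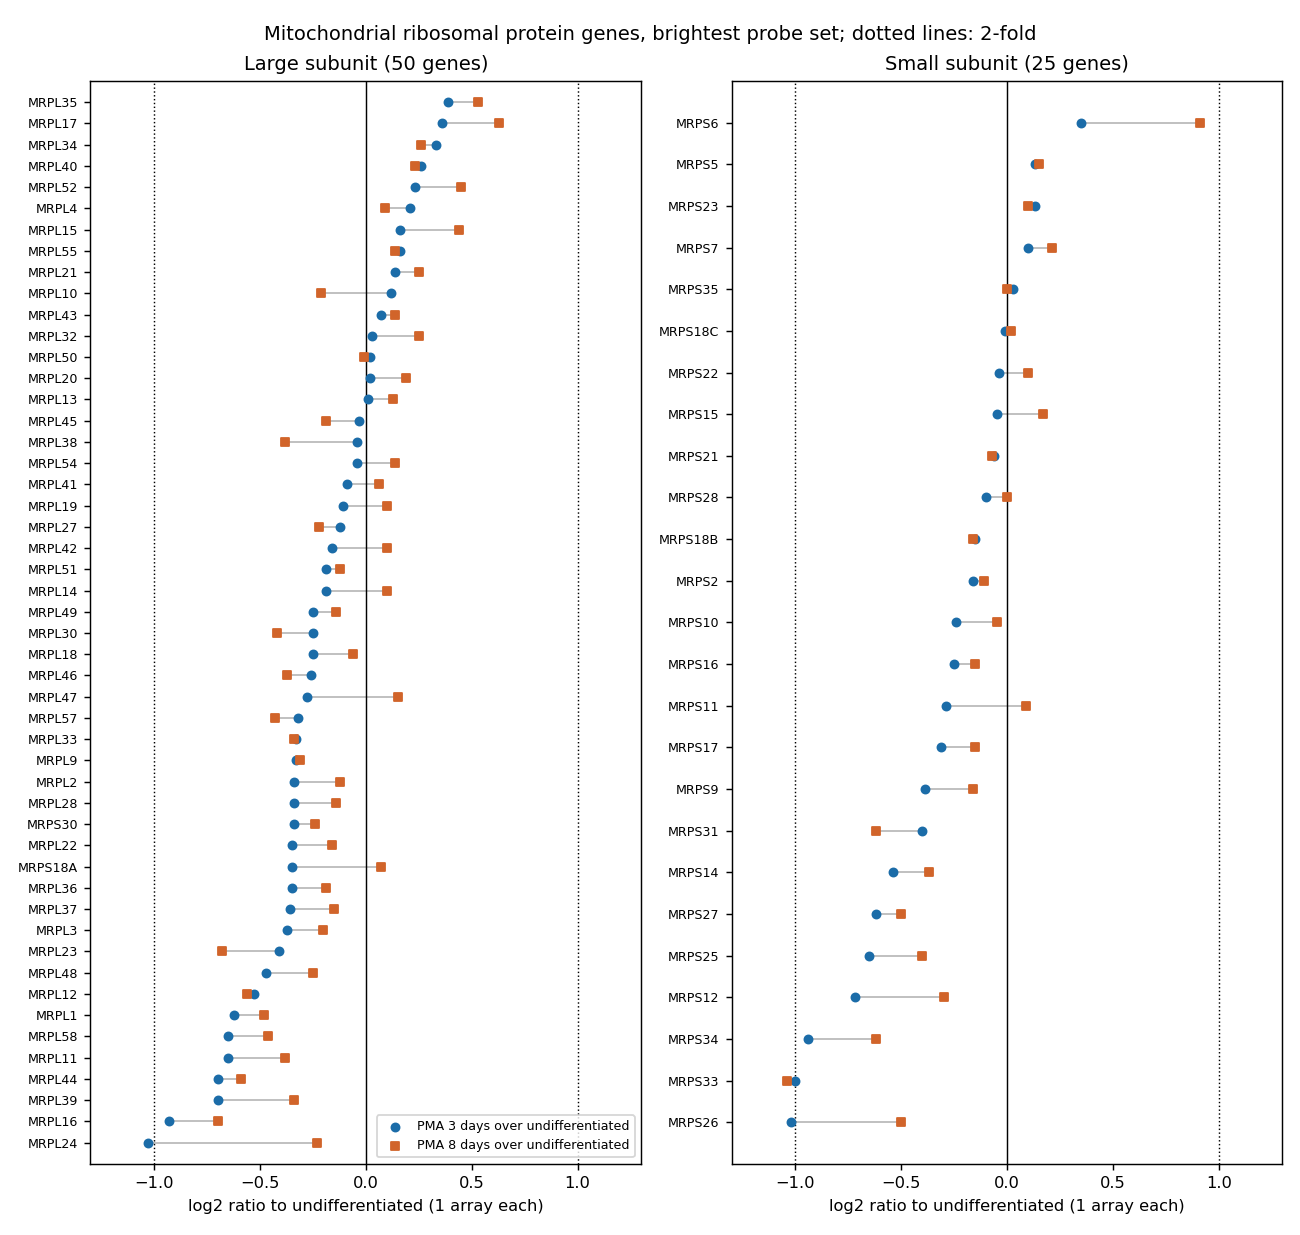
Log2 ratio to undifferentiated cells (horizontal axis) for each of the 50 large subunit and 25 small subunit genes (rows, ordered by the PMA 3 days ratio), 1 array per condition; blue circles are PMA 3 days, orange squares PMA 8 days, and dotted lines mark 2-fold. Most members lie between -0.5 and 0.5; MRPL24, MRPS26 and MRPS33 reach the lower 2-fold line, and MRPS6 is the member farthest to the right at 0.91.

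Few members passed 2-fold. At PMA 3 days 2 of 75 were lower by 2-fold (2.67%), against 10.7% of the 13306 genes tested, and none was higher, against 10.4%. These were MRPL24 and MRPS26. Centring on the median of all genes left 0 members lower, with 12.3% of all genes higher and 8.45% lower. Scaling to the labelling controls gave 5 members lower, with 8.22% and 15.7%. The members below 0 numbered 55, 44 with centring and 68 with control scaling. At PMA 8 days 1 of 75 was lower (1.33%), against 8.49% of 13555 genes, and none was higher, against 9.83%. The 1 was MRPS33, and with centring it was not called. From PMA 3 to 8 days no member passed 2-fold either way, against 1.37% of 13051 genes higher and 0.958% lower. With a 1.5-fold threshold 13 members were lower at PMA 3 days (17.3%, against 23.8% of all genes) and none higher (17.9% of all genes). At PMA 8 days 6 members were lower by 1.5-fold (8.00%, against 20.1%) and 2 higher (2.67%, against 17.6%). From 3 to 8 days 1 member, MRPL24, was higher by 1.5-fold (7.18% of all genes) and none lower (4.76%).

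The spread between probe sets gives a scale for these values. Over 26 members with several probe sets above the floor on every array, the log2 ratios of one gene had an SD of 0.308 between probe sets at PMA 3 days, 0.326 at PMA 8 days and 0.270 for 8 over 3 days. Over 5180 genes the SDs were 0.430, 0.444 and 0.265. By the SD over all genes, 16 of 75 members were lower by more than 1 SD at PMA 3 days and none was higher, against 31.5% and 22% of all genes. At PMA 8 days 11 were lower and 4 higher, against 27% and 21.9%. Between the PMA arrays 2 were lower and 13 higher at 8 days, against 17.4% and 23.1%. Differences between cultures or labellings are not part of this SD.

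The lowest member at PMA 3 days was MRPL24, the counterpart of bacterial protein L24, which binds early in large subunit assembly beside the tunnel through which the new peptide leaves. Its signal was 4735 in undifferentiated cells, 2311 at PMA 3 days and 4026 at PMA 8 days. It was thus 2.05-fold lower at 3 days (log2 ratio -1.03), while at 8 days it was lower by only a log2 ratio of -0.23. The difference of 0.80 between the PMA arrays was larger than the SD of 0.270 between members' probe sets. Within MRPL4, MRPL41, MRPS5 and MRPS12, however, probe sets were over 1 log2 unit apart in this comparison. Only 1 probe set reads MRPL24, so its own spread could not be measured.

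MRPS26, a small subunit protein without a bacterial counterpart, gave 1086, 535 and 768 units. That is 2.03-fold lower at PMA 3 days (log2 ratio -1.02) and -0.50 at PMA 8 days. MRPS33, of the same class, gave 5502, 2751 and 2668 units and was low on both PMA arrays. Its ratio was 1.9996-fold lower at 3 days, just inside the threshold, and 2.06-fold lower at 8 days (log2 ratio -1.04). MRPS34, which the small subunit needs for its stability, gave 3080, 1602 and 2000 units (log2 ratios -0.94 and -0.62). MRPL16, which helps to form the site that holds transfer RNA in the large subunit, gave 7139, 3758 and 4398 units (-0.93 and -0.70). MRPL16, MRPS33, MRPS34 and MRPL44 were the 4 members lower by 1.5-fold on both PMA arrays by their brightest probe sets. The share of all genes lower on both was not computed. Singly, 23.8% of all genes were lower by 1.5-fold at PMA 3 days and 20.1% at PMA 8 days. The second probe set of MRPL44, at -0.42 and -0.04, was short of 1.5-fold at both times. Like MRPL24, MRPS33, MRPS34 and MRPL16 were read by only 1 probe set each. The other MRPS26 probe set was under the floor on every array.

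At the other end stood MRPS6, a small subunit protein with a bacterial homologue, at 6779, 8664 and 12738 units. Its log2 ratio was 0.35 at PMA 3 days and 0.91 at PMA 8 days (1.88-fold higher), the highest of the 75 at 8 days. The inositol transporter gene SLC5A3 lies within the MRPS6 locus, and its brightest probe set gave 5542, 7065 and 11044 units, with log2 ratios of 0.35 and 0.99. Whether the signal of the MRPS6 probe set includes transcripts shared with SLC5A3 was not tested. MRPL17 gave 3534, 4546 and 5476 units (0.36 and 0.63) and MRPL35 gave 2741, 3600 and 3947 (0.39 and 0.53). MRPS6 and MRPL17 were read by only 1 probe set each. For MRPL35 the other probe sets disagreed: the second-brightest had a log2 ratio of -0.25 at PMA 3 days and 0.05 at PMA 8 days.

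**Figure D2:**
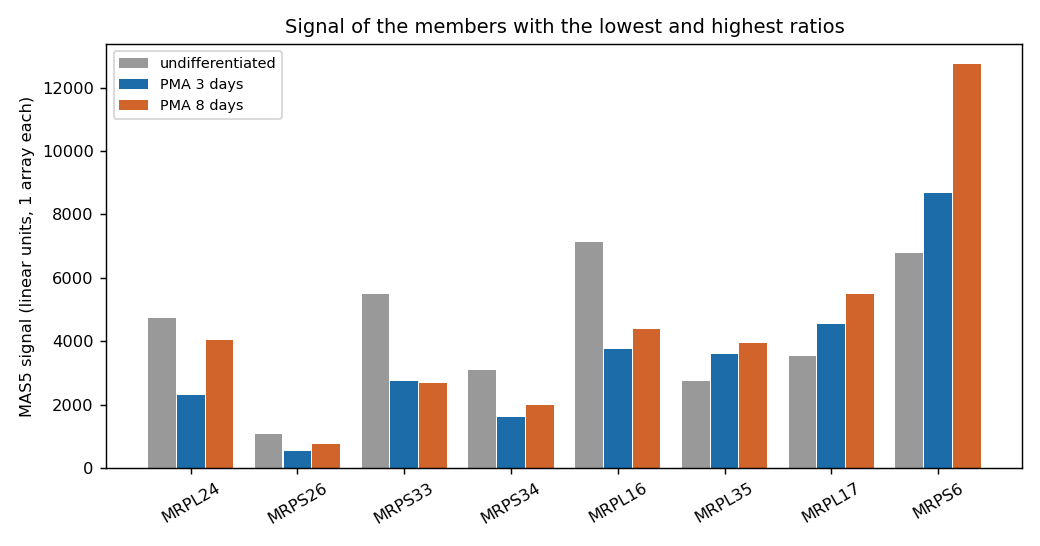
MAS5 signal in linear units (vertical axis, from 0) on the undifferentiated (grey), PMA 3 days (blue) and PMA 8 days (orange) arrays for the 5 members with the lowest and the 3 with the highest ratios at PMA 3 days, 1 array per bar. MRPL24 is low on the PMA 3 days array alone, MRPS33 on both PMA arrays, and MRPS6 is highest at PMA 8 days; heights of different genes are not comparable because each has its own probes.

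The promoters of these members are shown because nuclear genes for mitochondrial proteins are known for binding sites of NRF1, of ETS factors such as GABPA and of YY1. Sequences are from RefSeq, build GRCh38.p14, and give the 150 bases before the transcription start, 5′ to 3′ on the gene's strand. MRPL24 and MRPL17 are the lowest and highest at PMA 3 days among members in the promoter table, and the other 3 were chosen after their values were seen. They lie at chr1:156741089-156741238, minus strand (MRPL24), chr20:3045902-3046051, plus strand (MRPS26), chr7:141014953-141015102, minus strand (MRPS33, the first of its listed starts), chr11:6683341-6683490, minus strand (MRPL17) and chr21:34073428-34073577, plus strand (MRPS6). Capitals mark the letters TGCGCA (the core of an NRF1 site, the same on both strands), CCGGAAG (the core of an ETS site), AAGATGGC (a YY1 site) or CACGTG (the E-box bound by MYC and others), each searched on both strands.
MRPL24: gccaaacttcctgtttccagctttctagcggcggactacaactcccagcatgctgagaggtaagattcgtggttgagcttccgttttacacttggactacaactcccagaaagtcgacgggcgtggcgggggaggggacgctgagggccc
MRPS26: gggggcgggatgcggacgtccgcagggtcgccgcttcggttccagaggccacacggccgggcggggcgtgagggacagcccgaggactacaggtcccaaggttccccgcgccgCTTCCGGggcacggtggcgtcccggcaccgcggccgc
MRPS33: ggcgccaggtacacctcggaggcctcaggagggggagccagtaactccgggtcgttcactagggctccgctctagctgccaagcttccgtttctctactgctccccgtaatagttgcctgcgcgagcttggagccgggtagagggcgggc
MRPL17: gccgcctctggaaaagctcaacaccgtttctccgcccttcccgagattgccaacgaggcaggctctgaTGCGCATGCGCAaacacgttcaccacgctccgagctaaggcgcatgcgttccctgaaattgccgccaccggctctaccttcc
MRPS6: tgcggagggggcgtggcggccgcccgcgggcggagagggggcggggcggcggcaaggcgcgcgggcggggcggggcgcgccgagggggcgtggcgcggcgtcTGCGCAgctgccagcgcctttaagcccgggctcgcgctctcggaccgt

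MRPL17 held a pair of adjacent TGCGCA matches and MRPS6 1, and MRPS26 held CCGGAAG on the opposite strand, read here as CTTCCGG. The stretches printed for MRPL24 and MRPS33 held none of the 4 motifs. Within the 250 bases searched, MRPS33 held CACGTG before one of its listed starts and TGCGCA before the other. The promoter table had 83 start sites of 67 members, and the 250 bases before each were searched. TGCGCA was in 19.3% of them, against 6.89% of the 35116 start sites in the table and 8.32% of those of protein-coding genes. CCGGAAG was in 31.3%, against 8.52% and 10.7%, AAGATGGC in 8.43%, against 1.36% and 1.38%, and CACGTG in 9.64%, against 6.34% and 7.37%. No motif contains another, and start sites of 1 gene overlap in part. Members with TGCGCA before any start (15 genes, MRPS33 among them) had a median log2 ratio of -0.03 at PMA 3 days, and the 52 without had -0.27. The medians at PMA 8 days were closer, at -0.06 and -0.15. With CCGGAAG the medians at PMA 3 days were -0.25 in 24 genes and -0.26 in the 43 without. With CACGTG they were -0.30 in 8 genes and -0.25 in the 59 without. None of these splits was tested. A match describes the letters and does not show a bound site.

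Large subunit proteins had a median log2 ratio of -0.25 at PMA 3 days and -0.14 at PMA 8 days over 50 genes, with 35 and 30 of them below 0. The stalk that recruits translation factors was read by 3 members. MRPL11, at its base, gave 3918, 2501 and 3020 units (log2 ratios -0.65 and -0.38). MRPL12, the mobile stalk protein, which also binds the mitochondrial RNA polymerase, gave 3993, 2769 and 2704 (-0.53 and -0.56). MRPL10, which anchors MRPL12, was not lower at 3 days, with 3284, 3579 and 2843 units (0.12 and -0.21). By these values the stalk genes did not share 1 direction at 3 days. This rests on MRPL10, whose ratio of 0.12 was smaller than the SD between probe sets. Only 1 probe set reads MRPL10, and with scaling to the labelling controls it was at -0.08.

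Around the exit of the peptide tunnel, MRPL22 gave 4447, 3496 and 3979 units (log2 ratios -0.35 and -0.16). MRPL23 gave 9751, 7331 and 6105 (-0.41 and -0.68), so that it was lower still at 8 days. MRPL45, which ties the mitoribosome to the inner membrane, gave 2660, 2609 and 2327 (-0.03 and -0.19). Of these exit proteins, MRPL24 was the only one lower by 1.5-fold at 3 days. MRPL3, which reaches towards the peptidyl transferase centre, was measured at 18200, 14050 and 15844 units (-0.37 and -0.20).

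MRPL1, the protein of the flexible stalk beside the transfer RNA exit, gave 4526, 2952 and 3240 units (log2 ratios -0.62 and -0.48). MRPL58, once named ICT1, can free peptides from stalled ribosomes and gave 4328, 2765 and 3138 (-0.65 and -0.46). MRPL44, a protein with an RNase III fold that only mitochondria have, gave 3572, 2202 and 2377 (-0.70 and -0.59) by its brightest probe set. By its second probe set MRPL44 was at -0.42 and -0.04. MRPL39 gave 3000, 1846 and 2367 (-0.70 and -0.34). By their brightest probe sets these 4 genes were all lower by 1.5-fold at PMA 3 days and higher at 8 days than at 3.

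Many large subunit genes showed next to no difference. MRPL13 gave 6548, 6595 and 7175 units, MRPL50 gave 3330, 3380 and 3310, and MRPL43 gave 2577, 2703 and 2836. MRPL20 was measured at 10996, 11147 and 12544 and MRPL54 at 3190, 3097 and 3508. All 5 had log2 ratios between -0.04 and 0.19 on both PMA arrays. Besides MRPL17 and MRPL35, large subunit genes with high ratios were MRPL34 (4238, 5325 and 5088 units), MRPL40 (4181, 5013 and 4909), MRPL52 (3596, 4219 and 4920) and, at 8 days, MRPL15 (8384, 9357 and 11403). None of these 4 reached 1.5-fold. Of the 15 members of the large subunit above 0 at PMA 3 days, MRPL10 and MRPL50 were below 0 at 8 days.

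Small subunit proteins had a median of -0.24 at PMA 3 days and -0.11 at PMA 8 days over 25 genes, with 20 and 15 below 0. The 16 with a bacterial homologue had medians of -0.16 and -0.06, and the 9 found only in mitochondria -0.62 and -0.50. In the large subunit the 31 with a homologue had medians of -0.25 and -0.12, and the 19 without -0.19 and -0.15. These groups were read on the same arrays and were not tested against each other. MRPS12, the decoding protein at which the drug streptomycin acts in bacteria, gave 7332, 4447 and 5954 units (log2 ratios -0.72 and -0.30).

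Among the 9 small subunit proteins found only in mitochondria some were low on the PMA arrays and others nearly level. Besides MRPS26, MRPS33 and MRPS34, MRPS25 gave 3058, 1951 and 2314 units (-0.65 and -0.40). MRPS27, a protein of the pentatricopeptide repeat family of RNA binders, gave 5714, 3720 and 4043 (-0.62 and -0.50). MRPS31 gave 2361, 1785 and 1531 (-0.40 and -0.62), and its second probe set was at -0.49 and -0.15. MRPS22, MRPS23 and MRPS35 were nearly level: MRPS22 at 5119, 4988 and 5496, MRPS23 at 5845, 6417 and 6266, and MRPS35 at 7813, 7992 and 7815. Their log2 ratios lay between -0.04 and 0.13 on both PMA arrays.

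The 3 human relatives of bacterial protein S18 differed little. MRPS18C, the one at the bacterial position, gave 6402, 6377 and 6512 units. MRPS18B gave 1876, 1686 and 1679 (-0.15 and -0.16). MRPS18A, in the large subunit, gave 3132, 2457 and 3295 (-0.35 and 0.07), but its second probe set was level with a log2 ratio of 0.04 from 3 to 8 days. MRPS5, MRPS7 and MRPS21, small subunit proteins with bacterial relatives, were likewise close to level by their brightest probe sets, MRPS21 at 12866, 12299 and 12228.

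Across the arrays, 42 of the 75 members (56.0%) had their lowest signal at PMA 3 days, 15 (20%) at PMA 8 days and 18 (24.0%) in undifferentiated cells. Over 12404 genes with a ratio in all comparisons these shares were 36.2%, 26.1% and 37.7%. In 43 members (57.3%) both PMA arrays were below undifferentiated, against 48.1% of those genes. In 12 (16.0%) the 3 days array was below and the 8 days array above, against 7.97%. Of the 55 members that were below undifferentiated at 3 days, 42 (76.4%) were higher at 8 days than at 3 days, against 64.6% of all genes below at 3 days. Between the PMA arrays the largest differences besides MRPL24 were in MRPS6 (log2 ratio 0.56 at 8 over 3 days), MRPS26 (0.52) and MRPL47, a large subunit protein at 10104, 8346 and 11223 units (0.43). The lowest were MRPL38, found only in mitochondria, at 641, 621 and 492 units (-0.34), and MRPL10 (-0.33). All of these comparisons share arrays, so a high or low reading on 1 array enters more than 1 of them. Among cell cycle genes 26 of 28 were higher at PMA 8 days than at PMA 3 days, PLK1 and CDT1 being the exceptions. Their median was -1.54 at PMA 3 days, -0.66 at PMA 8 days and 0.66 at 8 over 3 days, with 28 of 28 below undifferentiated on both PMA arrays. The proliferation marker MKI67 was at 4819, 1581 and 2739 units. The part of cell division in the members' values was not tested.

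Probe sets of 1 gene did not always have the same direction. Of 31 members with a ratio from several probe sets at PMA 3 days, 21 had all of them on 1 side of 0. At PMA 8 days 22 of 33 did, and for 8 over 3 days 18 of 31. At PMA 3 days the ratios within MRPL30 and within MRPL42 were over 1 log2 unit apart. The brightest MRPL42 probe set gave 5310, 4756 and 5691 units (-0.16 and 0.10), and the dimmest gave 1033, 386 and 443 (-1.42 and -1.22). For MRPL30 the probe sets ran from -1.05 to 0.01 at 3 days. At PMA 8 days MRPL19, MRPL41, MRPL42, MRPS5 and MRPS12 were that far apart. MRPL41, for example, had 1 probe set at 1.10, under the floor in undifferentiated cells, and another at -0.70, while its brightest gave 9254, 8671 and 9663 units (-0.09 and 0.06). For 8 over 3 days MRPL4, MRPL41, MRPS5 and MRPS12 were.

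MRPL4 was above undifferentiated at 3 days by its brightest probe set (823, 955 and 876 units, log2 ratio 0.21), while its other probe sets were at -0.62 and -0.78. MRPS5 was likewise above by its brightest (3314, 3639 and 3670 units, 0.13 and 0.15), and a dimmer one gave 324, 216 and 119 (-0.59 and -1.11). MRPL19 gave 2242, 2073 and 2395 units (-0.11 and 0.10), with a dimmer probe set at -0.93 at 8 days. For MRPS12 the second-brightest stayed low at 8 days (-0.92), where the brightest was at -0.30. In each of these genes the direction or size thus depended on the probe set.

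Some members passed 2-fold only by a dimmer probe set. MRPS14 had 8818, 6052 and 6832 units by its brightest (-0.54 and -0.37) and 1427, 702 and 628 by its second (-1.02 and -1.18). MRPS30 had 3732, 2955 and 3163 by its brightest (-0.34 and -0.24) and 1201, 516 and 571 by its second (-1.22 and -1.07). Among the probe sets that were not a gene's brightest, 5 of 54 were lower by 2-fold at PMA 3 days (median -0.35). Of all 11580 such probe sets on the array 10.1% were (median -0.13), so the members' share was near the background. Which transcripts the dimmer probe sets read was not checked.

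**Figure D3:**
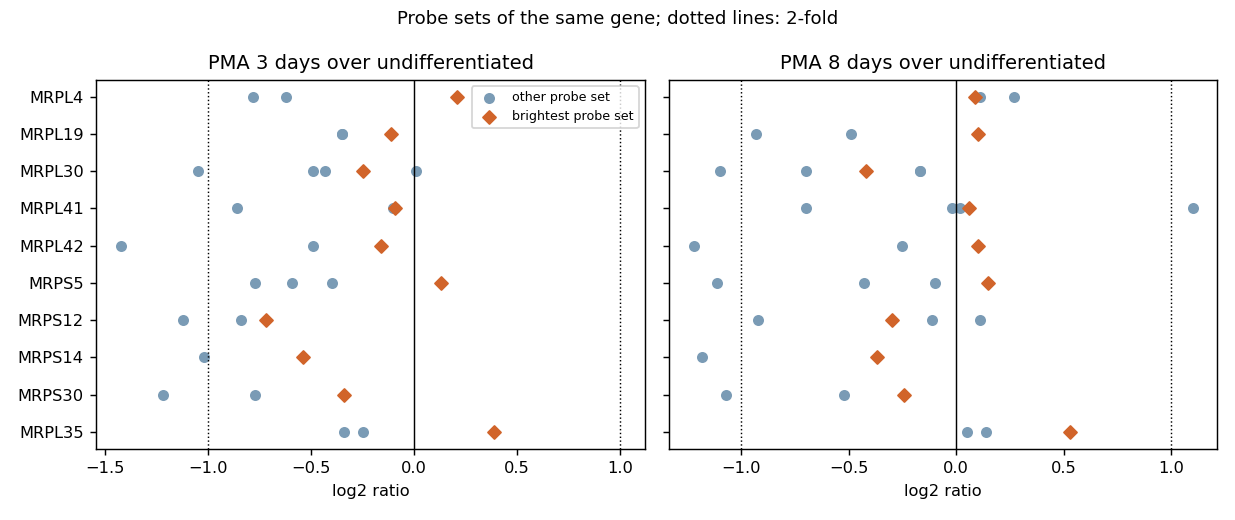
Log2 ratio to undifferentiated cells (horizontal axis) of each probe set of 10 members (rows), at PMA 3 days (left) and PMA 8 days (right); orange diamonds are the brightest probe set of the gene, blue circles the others, and dotted lines mark 2-fold. Within MRPL42 the values run from -1.42 to -0.16 at PMA 3 days, and MRPL41 spans from -0.70 to 1.10 at PMA 8 days.

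Related genes give the setting. Cytoplasmic ribosomal proteins, the other ribosome of the cell, had medians of -0.35 at PMA 3 days and -0.33 at PMA 8 days, with 56 and 59 of 60 below 0 and none past 2-fold. The middle 50% of them lay between -0.42 and -0.28 at 3 days, and that of the mitoribosomal genes between -0.38 and 0.02. From 3 to 8 days the cytoplasmic genes had a median of 0.01 and the mitoribosomal genes 0.13. Nuclear subunits of oxidative phosphorylation, which join the products of the mitoribosome, had medians of -0.07 and 0.05, with 1 of 64 lower by 2-fold at 3 days, the ATP synthase subunit ATP5F1D (5932, 2565 and 3859 units). The mitochondrial transcript of ND4, a complex I subunit made on the mitoribosome, was at 60873, 50573 and 53455 units (-0.27 and -0.19). ND4 was chosen after its values were seen.

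Other parts of mitochondrial translation were read from lists of genes. The mitoribosome proteins with other symbols had medians of -0.10 and -0.15 over 5 genes, with none past 2-fold. The list also holds OXA1L, the insertase of the inner membrane that the mitoribosome binds. DAP3 gave 11772, 11005 and 11390 units, and PTCD3, which guides messenger RNA to the small subunit, gave 3953, 2637 and 2822. Genes listed as translation factors had medians of -0.23 and -0.14 over 16 genes, with none past 2-fold at 3 days. At 8 days 1 was lower, the release factor family gene MTRF1 (1219, 859 and 606 units). Among the 16 are also COX14, LRPPRC, SLIRP and RMND1, which are not initiation, elongation or release factors. The elongation factor TUFM was at 7295, 5458 and 5700. Mitochondrial aminoacyl-tRNA synthetases and the related amidotransferase genes had medians of -0.22 and -0.24 over 18 genes. EARS2 was 2.06-fold lower at 3 days and NARS2 2.14-fold lower at 8 days, and none was higher by 2-fold.

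Assembly factors and ribosomal RNA enzymes had medians of -0.38 and -0.26 over 32 genes, in a list that also holds the nucleolar protein LYAR. RBFA, which helps the small subunit RNA to mature, was 2.30-fold lower at 3 days (1068, 464 and 724 units), and the GTPase gene GTPBP6 2.28-fold (1098, 480 and 630). MTG1, a GTPase of large subunit assembly, was 2.04-fold lower at 8 days. None of the 32 was higher by 2-fold. Genes of mitochondrial DNA upkeep and transcription had medians of -0.45 and -0.62 over 11 genes. TOP1MT, the mitochondrial topoisomerase, was at 3271, 655 and 562 units, 5.00-fold and 5.82-fold lower. TFAM, which packs mitochondrial DNA and starts its transcription, was at 4616, 2161 and 2838 and 2.14-fold lower at 3 days by its brightest probe set. By its other probe sets above the floor TFAM was 1.41-fold and 1.70-fold lower, short of 2-fold. POLG2 was 2.12-fold lower at 8 days.

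Of the regulators linked to mitochondrial biogenesis, 1 of 12 was past 2-fold at either time. MYC gave 9225, 1767 and 2453 units, 5.22-fold lower at 3 days and 3.76-fold lower at 8 days. NRF1 gave 978, 673 and 746 (-0.54 and -0.39), GABPA 2846, 2755 and 2305 (-0.05 and -0.30) and YY1 16935, 18141 and 18743 (0.10 and 0.15). PPARGC1A, a coactivator, was below the floor in undifferentiated cells and at 217 and 283 units on the PMA arrays. The medians of the list were -0.14 and -0.24.

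**Figure D4:**
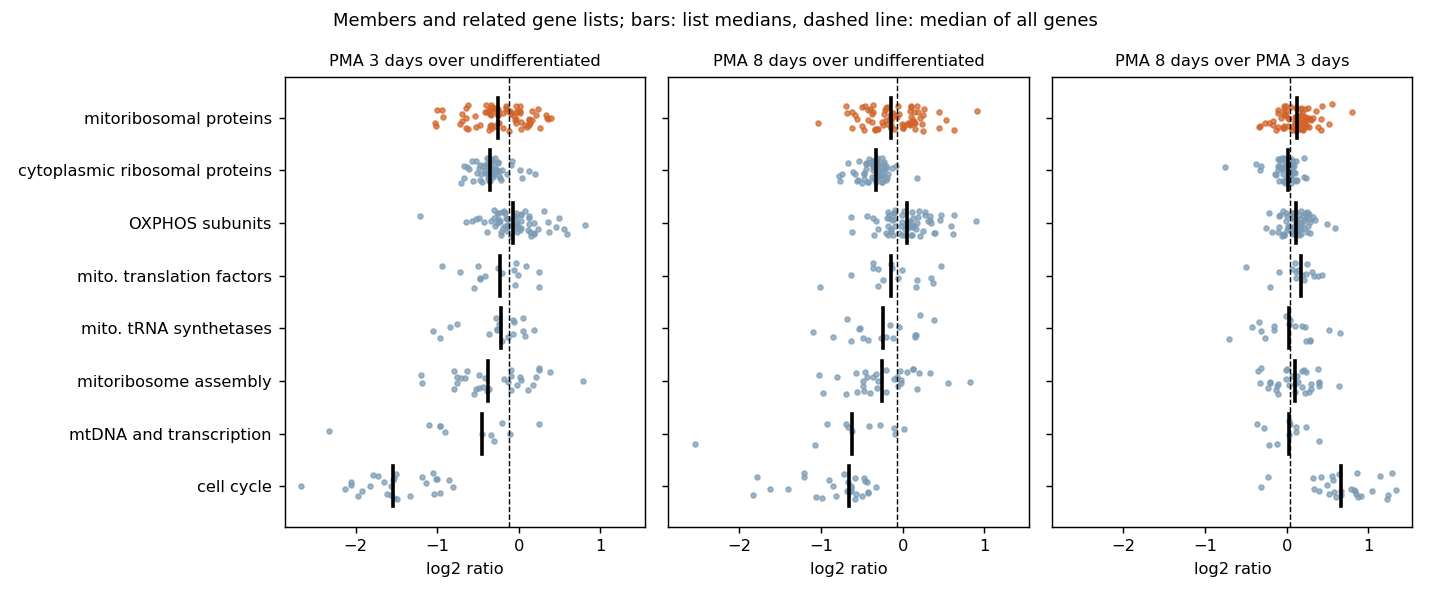
Log2 ratio of every gene above the floor (points, horizontal axis) in the members (orange) and in 7 related lists (blue) for the 3 comparisons, 1 array per condition; black bars are list medians and the dashed line is the median of all genes. The mitoribosomal medians are -0.25, -0.14 and 0.13, close to the dashed line. The cell cycle list stands apart at PMA 3 days (-1.54) and for 8 over 3 days (0.66). At PMA 8 days its median of -0.66 lies beside that of mitochondrial DNA and transcription (-0.62).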

How the data were processed

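The labels describe total RNA on 1 biotin-labelled, 1-colour array per condition. The deposited values are MAS5 signal intensities on a linear scale, per the submitters' processing notes, whose version and settings are not given in the sources used here. Each array had a trimmed mean of 1000 with 2% left out at either end. Raw scanner files and detection calls were not used here.

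Of 54675 probe sets, 62 were controls. The platform annotation gave 41091 a single gene, 1801 more than 1 gene and 11721 no gene. Entrez IDs of 41037 probe sets matched the RefSeq table of GRCh38.p14, which changed 0 symbols. Left out were 3 probe sets that list a member with another gene and 2 of antisense or pseudogene symbols.

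Each gene was read by its probe set with the highest mean signal. Signals under the median signal (149.8 units) were raised to it, and genes above it on at least 1 array of a comparison were tested. Log2 ratios were called at 2-fold. With 1 array per condition no p-value was computed, and the number of arrays limits the precision. The SD between probe sets was pooled over genes with several above the floor on all arrays.

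Every member past 2-fold, the 6 highest and lowest per comparison, members with discordant probe sets and members of fixed functional groups were named, with others as examples. Members and lists were chosen with earlier results of these data known. The steps were tested on simulated data with known folds. These folds were larger than that of any member by its brightest probe set. The simulated noise was smaller than the SD between probe sets. Recovery of differences as small as the members' was thus not tested. Python 3.11.15, numpy 2.4.6, pandas 2.3.3 and matplotlib 3.10.9 were used.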

Additional observations from a re-analysis of the deposited data

How the results depend on the processing

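Results were recomputed with floors at the 40th and 60th percentile, without floor and filter, with the mean of a gene's probe sets or its second-brightest one, and with quantile normalization, scaling to poly-A controls or centring on the median of all genes. Scaling to poly-A controls moved the median of all genes at PMA 3 days from -0.12 to -0.31 and that of the members from -0.25 to -0.46, with 5 members lower by 2-fold (MRPL16, MRPL24, MRPS26, MRPS33 and MRPS34). All-gene calls there went from 10.4% higher and 10.7% lower to 8.22% and 15.7%. For 8 over 3 days it moved the members' median from 0.13 to 0.30. Centring gave a median of -0.13 at PMA 3 days and 0 members lower at PMA 3 or 8 days, with all-gene calls of 12.3% higher and 8.45% lower at 3 days. The second-brightest probe sets, which only 33 members have above the floor, gave 2 lower at 8 days, where 8.57% of all genes read this way were lower. These were MRPS14 and MRPS30, which at 3 days also took the place of MRPL24 and MRPS26, against 9.95% of genes. Neither is called by its brightest probe set, and MRPL24 has no other. With quantile normalization MRPL24 and MRPS33 were the 2 lower at 3 days, in place of MRPL24 and MRPS26. A 1.5-fold threshold gave 13 lower at PMA 3 days, 6 lower and 2 higher at PMA 8 days and 1 higher for 8 over 3 days. The other counts of members past 2-fold were within 1.5 times and the members' other medians within 0.1 of those reported. Counts by side of 0 moved more. For 8 over 3 days, members below 0 went from 21 to 6 with scaling to poly-A controls. At PMA 3 days, members above 0 went from 20 to 7 with that scaling and to 31 with centring. Of 491 recomputed ratios of 22 named members, 12 moved by more than the SD between probe sets, 10 of them with the second-brightest probe set. Changes of the floor could move none, as every member was above each floor on all arrays. Only members with another probe set above the floor gave a second-brightest ratio. The 12 of 491 thus does not measure how often probe sets disagree. Of called ratios 0 changed sign, but MRPL24, MRPS26 and MRPS33 have no other probe set above the floor that could have reversed them. No paired analysis was possible because each condition has 1 array. Arrays of further cultures would be needed for any error between cultures.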

Other observations

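Of the 140 member probe sets, 118 were above the floor on all 3 arrays, 15 on some and 7 on none.

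Members with the YY1 letters AAGATGGC before a start site were 5 genes, with medians of -0.28 at PMA 3 days and 0.15 at PMA 8 days, while the 62 without had -0.25 and -0.15. With so few genes this is given as a value only.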
